A study of Mus musculus with 8 samples.

Results

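Retinoic acid is the active form of vitamin A, and 9 genes for its uptake, synthesis, breakdown and reception were examined in the cortex: Stra6, Rbp4, Crabp1, Aldh1a1, Aldh1a2, Cyp26b1, Rara, Rarb and Rxrg. They were chosen by name, as a pathway, after Stra6 had been seen higher in the mutant mice, so the comparison between genotypes is a description for them and carries no test. All 9 were found among the 54532 genes listed in the table of counts, and all 9 passed the filter on low counts that kept 17195 genes. RNA sequencing measured the cortex of 8 mice of the strain C57BL/6 at 8 months of age, with 1 library per mouse. The control group was 4 PS19 mice, which carry a transgene for mutant human tau driven by the mouse prion promoter. The other group, Adrb1+/m;PS19 in the labels and Adrb1-A187V;PS19 here, was 4 mice with the same transgene and 1 copy of a knock-in mutation of Adrb1, the gene for the beta-1 adrenergic receptor. Both groups carry the tau transgene, and mice without it were not analysed here. The labels name neither litters nor batches.

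Retinol travels in blood bound to RBP4, enters cells through the receptor STRA6, and is oxidized to retinal and then, by the ALDH1A enzymes, to retinoic acid. Retinoic acid binds nuclear receptors of the RAR group, which pair with RXR receptors on DNA and switch genes on, while CYP26 enzymes break it down. In the adult brain its synthesis is known mainly from the meninges, and the striatum, where dopamine-receptive projection neurons express RXRG, is a region of known retinoid signaling.

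The receptor pairs recognize repeats of a short half-site, so the promoter windows of the members were searched on both strands for the half-site AGGTCA, its variant AGTTCA and the versions that start with G, GGGTCA as well as GGTTCA, and for pairs of these in the same direction with 1, 2 or 5 bases between them. RefSeq windows on GRCm38.p6, from 250 bases before to 50 bases after a transcript start, were found for 9 of 9 members, 18 windows in all. A half-site was found in 8 of the 18, while 43.7% of all 32851 windows held one. A direct repeat was found in 1 window, at Rarb, where GGTTCA is followed after 5 bases by AGTTCA at positions -53 to -37 from the start. Of all windows, 0.0974% held a repeat with a spacing of 5 and 0.588% one with any of the 3 spacings. A match of letters is a description of the sequence, and these data hold no measure of binding. Windows are shown for Rarb, for the gene that selected the group (Stra6), and for Rxrg and Aldh1a2, the genes with the highest correlations with a marker list below, which did not pass adjustment; Stra6 and Rxrg had several windows, and the one with the most half-sites is given. Each is written 5′ to 3′ on the gene's own strand, with the half-sites in capitals. They lie at chr14:16575427-16575726 on the minus strand for Rarb, and on the plus strand at chr1:167618015-167618314 for Rxrg, chr9:58133825-58134124 for Stra6 and chr9:71215539-71215838 for Aldh1a2.
Rarb: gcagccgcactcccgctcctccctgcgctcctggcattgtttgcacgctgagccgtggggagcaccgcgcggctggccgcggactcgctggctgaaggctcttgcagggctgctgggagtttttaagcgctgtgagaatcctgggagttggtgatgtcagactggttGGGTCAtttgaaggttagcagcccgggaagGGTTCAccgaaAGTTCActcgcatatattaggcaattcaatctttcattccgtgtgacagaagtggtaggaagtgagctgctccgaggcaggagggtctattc
Rxrg: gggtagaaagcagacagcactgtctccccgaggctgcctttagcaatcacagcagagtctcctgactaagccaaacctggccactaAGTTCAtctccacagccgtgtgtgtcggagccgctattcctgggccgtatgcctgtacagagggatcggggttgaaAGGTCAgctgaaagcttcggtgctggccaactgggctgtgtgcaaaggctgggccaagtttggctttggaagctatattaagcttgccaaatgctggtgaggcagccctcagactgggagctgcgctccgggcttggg
Stra6: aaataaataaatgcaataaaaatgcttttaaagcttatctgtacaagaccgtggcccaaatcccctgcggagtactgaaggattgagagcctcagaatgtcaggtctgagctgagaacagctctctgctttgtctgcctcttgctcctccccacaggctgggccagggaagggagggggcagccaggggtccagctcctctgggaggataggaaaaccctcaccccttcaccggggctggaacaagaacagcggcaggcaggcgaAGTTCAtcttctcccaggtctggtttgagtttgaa
Aldh1a2: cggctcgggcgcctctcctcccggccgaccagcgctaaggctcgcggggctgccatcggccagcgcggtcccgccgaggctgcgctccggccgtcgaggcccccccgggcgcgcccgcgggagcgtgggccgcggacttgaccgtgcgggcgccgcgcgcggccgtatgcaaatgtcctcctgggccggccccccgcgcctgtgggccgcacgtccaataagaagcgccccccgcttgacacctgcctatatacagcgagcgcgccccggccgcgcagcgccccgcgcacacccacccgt
The Aldh1a2 window held none of the 4 half-sites. The single half-site of the Stra6 window lay at positions 16 to 21 after the start, and those of Rxrg began at positions -164 and -88. The windows shown for Rarb, Stra6 and Rxrg lie inside the gene spans of the count table, at internal transcript starts. The window of Aldh1a2 lies at the start of its gene span.

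The libraries held 14653222 to 21223754 counts. Values are given as CPM, the counts scaled to a common library size with edgeR's TMM factors, or as log2 fold changes of Adrb1-A187V;PS19 against PS19. Adrb1 itself was measured at 36.8 ± 4.20 CPM in PS19 and 35.0 ± 3.71 in Adrb1-A187V;PS19 mice (SD, n = 4 each), which is no check of a point mutation. Over all genes tested the median log2 fold change was 0.00046 and the median size of a change 0.07. Markers of cortical excitatory neurons, a check of the labelled tissue, were all 11 detected and summed to 1757 to 2036 CPM in PS19 and 1649 to 1845 CPM in Adrb1-A187V;PS19 mice. Markers of striatal projection neurons, which lie outside the cortex, summed to 1096 to 2172 and 1134 to 2438 CPM, with all 12 detected. At an edgeR unadjusted p under 0.05, 2 of the 11 cortical excitatory markers were higher and 3 lower in Adrb1-A187V;PS19 mice, and their log2 fold changes centred on -0.13 (median). Markers of basal forebrain cholinergic neurons summed to 36.1 to 59.6 CPM in PS19 and 57.6 to 88.8 CPM in Adrb1-A187V;PS19 mice, and all 9 had a log2 fold change above 0, with a median of 0.69 and 8 of 9 at an edgeR unadjusted p under 0.05. None of these genes passed adjustment, and the part of such tissue differences in the values below was not tested. Of all genes tested, 1.42% were higher and 1.37% lower at the unadjusted threshold. The marker lists were chosen with earlier results of these data known, so nothing is read from the counts of markers past it. No list had a marker at 0 in every mouse.

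Stra6, the membrane receptor that takes up retinol from RBP4, was measured at 6.68, 4.28, 4.44 and 4.40 CPM in PS19 mice 1 to 4 and at 5.16, 7.71, 7.17 and 6.85 CPM in Adrb1-A187V;PS19 mice 1 to 4. PS19 mouse 1 stood above the other 3 PS19 mice and above Adrb1-A187V;PS19 mouse 1, so the groups overlapped. The means were 4.95 ± 1.15 and 6.72 ± 1.10 CPM (SD, n = 4 each), a log2 fold change of 0.45 (SE 0.18) that rested on 62 to 161 counts per mouse. It was 0.62 without PS19 mouse 1 and 0.37 at the lowest over the 13 alternative processings. In bulk cortex, fewer cells of a type and less RNA per cell cannot be told apart, for this and every gene below. Stra6 (ENSMUSG00000032327) lies at 58063788 to 58153996 on chromosome 9, and the gene on its opposite strand that it overlaps, Ccdc33, had at most 16 counts in a mouse.

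Rbp4, the retinol carrier, was measured at 13.2, 14.7, 14.5 and 10.4 CPM in PS19 mice and at 12.9, 14.5, 11.5 and 8.94 CPM in Adrb1-A187V;PS19 mice. Mouse 4 was the lowest of each group, and the groups covered much the same range. The log2 fold change was -0.14 (SE 0.15). Crabp1, which binds retinoic acid in the cytosol, had the fewest counts of the 9 genes, 16 to 40 per mouse. Its values were 1.59, 2.14, 1.23 and 0.96 CPM in PS19 and 2.40, 0.86, 1.29 and 1.75 CPM in Adrb1-A187V;PS19 mice, with a log2 fold change of 0.09 (SE 0.35). Its lowest and its highest value were both in Adrb1-A187V;PS19 mice. Rbp4 (ENSMUSG00000024990) lies at 38116620 to 38125321 on chromosome 19 and Crabp1 at 54764748 to 54773110 on chromosome 9.

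**Figure D1:**
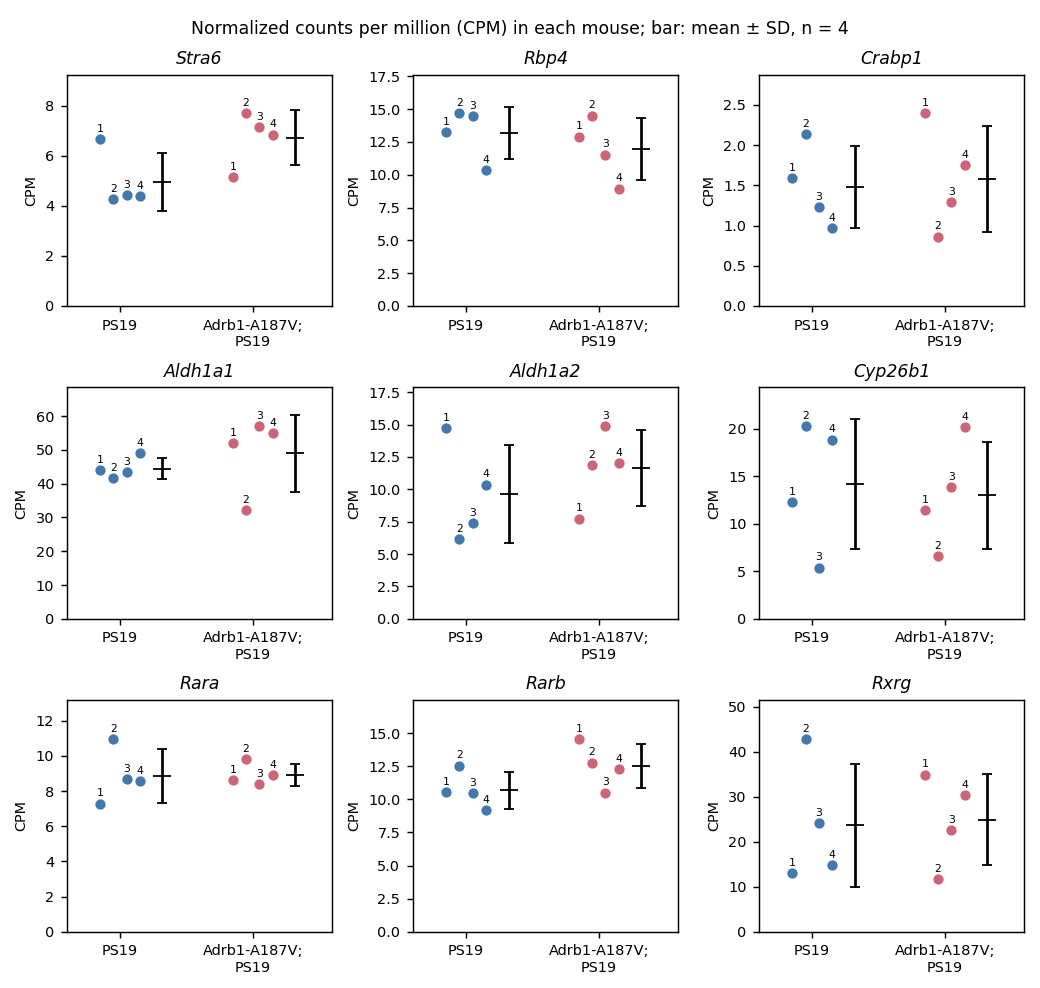
CPM of the 9 genes in each mouse, numbered 1 to 4 in each genotype, on axes from 0; bars give the mean ± SD (n = 4). For every gene the 2 genotypes overlap, and for Stra6 it is PS19 mouse 1, at 6.68 CPM, that lies among the Adrb1-A187V;PS19 mice.

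Aldh1a1, an enzyme that makes retinoic acid from retinal, was measured at 44.0, 41.6, 43.3 and 48.97 CPM in PS19 mice and at 51.9, 32.3, 57.1 and 55.0 CPM in Adrb1-A187V;PS19 mice. The PS19 mice lay close together, while Adrb1-A187V;PS19 mouse 2 was below all others. The means were 44.5 ± 3.17 and 49.1 ± 11.4 CPM (SD, n = 4 each), with a log2 fold change of 0.14 (SE 0.14). Of the 50-base stretches of its longest GENCODE transcript, 6.54% also occur in Aldh1a7, so some of its reads could have been counted there or dropped. Aldh1a1 also overlaps C730002L08Rik on the opposite strand, which had 139 to 270 counts per mouse, against 602 to 1020 for Aldh1a1. The strand setting of the counting is not given in the sources used here. Reads of any stretch shared by both genes therefore cannot be assigned with certainty.

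Aldh1a2, the enzyme of retinoic acid synthesis known from the meninges, was measured at 14.7, 6.14, 7.36 and 10.4 CPM in PS19 mice. In Adrb1-A187V;PS19 mice it was measured at 7.74, 11.9, 14.9 and 12.1 CPM. The highest mice of the 2 groups, PS19 mouse 1 and Adrb1-A187V;PS19 mouse 3, were almost level, and the log2 fold change was 0.28 (SE 0.24), with 0.55 without PS19 mouse 1 and 0.12 without PS19 mouse 2. Cyp26b1, which breaks retinoic acid down, was measured at 12.3, 20.3, 5.38 and 18.9 CPM in PS19 and at 11.5, 6.61, 13.8 and 20.2 CPM in Adrb1-A187V;PS19 mice. Each group held a mouse near 20.2 CPM and one under 7 CPM, and the log2 fold change was -0.12 (SE 0.36). Aldh1a1 lies at 20492715 to 20643462 on chromosome 19, Aldh1a2 at 71215789 to 71296243 on chromosome 9 and Cyp26b1 at 84571414 to 84593908 on chromosome 6.

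Among the receptors, Rara had the narrowest span of the 9 genes over the 8 mice, 1.51-fold, with 7.29, 10.97, 8.69 and 8.55 CPM in PS19 and 8.64, 9.82, 8.40 and 8.89 CPM in Adrb1-A187V;PS19 mice. Its log2 fold change was 0.01 (SE 0.13). Rarb, a receptor whose own gene is a known target of retinoic acid, was measured at 10.5, 12.6, 10.5 and 9.22 CPM in PS19 and at 14.6, 12.8, 10.5 and 12.3 CPM in Adrb1-A187V;PS19 mice. The means were 10.7 ± 1.38 and 12.5 ± 1.67 CPM (SD, n = 4 each), and the log2 fold change was 0.23 (SE 0.13). Adrb1-A187V;PS19 mouse 3 lay among the PS19 mice and PS19 mouse 2 among the Adrb1-A187V;PS19 mice.

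The value of Rarb also has a limit from an overlapping gene. The gene, at 16430839 to 16819156 on the minus strand of chromosome 14, overlaps Top2b, a DNA topoisomerase gene on the opposite strand, and 54.1% of the 3059 stretches of 50 bases in its longest GENCODE transcript also occur in Top2b transcripts. Top2b was far more abundant, at 140.5 to 152 CPM, and the strand setting of the counting is not given in the sources used here. Reads of the shared stretch therefore cannot be assigned with certainty. Top2b had a log2 fold change of 0.02 (SE 0.05). Over the 8 mice its deviations from the genotype mean were not found to move with those of Rarb (r = -0.58, p = 0.215; rho = -0.24, p = 0.62; exact permutation tests, 2-sided).

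Rxrg, the RXR receptor of striatal projection neurons, was measured at 13.0, 42.9, 24.1 and 14.8 CPM in PS19 mice. In Adrb1-A187V;PS19 mice it was measured at 34.9, 11.7, 22.6 and 30.3 CPM. Both groups held a mouse near the bottom and a mouse near the top of the range, a 3.65-fold span over the 8 mice. The means were 23.7 ± 13.7 and 24.9 ± 10.1 CPM (SD, n = 4 each), and the log2 fold change was 0.07 (SE 0.35). Rara lies at 98927818 to 98974942 on chromosome 11 and Rxrg at 167598384 to 167639623 on chromosome 1.

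Of the 9 genes, 7 had a log2 fold change above 0 and 2 below, with a median of 0.09 and a range from -0.14 to 0.45. The genotypes did not overlap in 0 of the 9, while they did not overlap in 2.02% of all genes tested. Because Stra6 was seen in this comparison before the genes were chosen, nothing is read from these counts. The sign of the change held under all 13 alternatives for Stra6, Rbp4, Aldh1a1, Aldh1a2 and Rarb, and it turned under 2 for Crabp1, 3 each for Cyp26b1 and Rara and 4 for Rxrg. With single mice left out, the log2 fold change ran from -0.25 to -0.02 for Rbp4 (without Adrb1-A187V;PS19 mouse 2 and mouse 4), from -0.18 to 0.31 for Crabp1 (without Adrb1-A187V;PS19 mouse 1 and PS19 mouse 2) and from -0.41 to 0.11 for Cyp26b1 (without Adrb1-A187V;PS19 mouse 4 and mouse 2). For Aldh1a1 it ran from 0.06 without Adrb1-A187V;PS19 mouse 3 to 0.30 without mouse 2 of that group. Among the receptors, it ran from -0.07 to 0.13 for Rara (without PS19 mouse 1 and mouse 2), from 0.15 to 0.31 for Rarb and from -0.14 to 0.50 for Rxrg (for both without Adrb1-A187V;PS19 mouse 1 and PS19 mouse 2).

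The genes differed in how much they varied among mice of the same genotype. On the log2 scale, the SD within genotypes was 0.77 for Cyp26b1, 0.74 for Rxrg and 0.48 for Aldh1a2, where counting error alone would give 0.09, 0.07 and 0.10. Among genes within 1.5-fold of the same level, 99.8%, 99.7% and 98.1% had a smaller SD than these 3. Aldh1a1 had an SD of 0.28, above that of 97.4% of genes at a like level, and Rbp4 one of 0.27, above 90.6%. The other 4 stood lower among genes of their own level. Stra6 had an SD of 0.28 and exceeded 69.9% of them, Rarb exceeded 62.7% with an SD of 0.19, and Rara exceeded 47.1% with an SD of 0.18. Crabp1 had an SD of 0.52, of which counting error would give 0.28, and exceeded 79.3%.

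Levels of different genes were compared per kilobase of gene length, as the count table gives it. That length is 5829 bases for Stra6 and 4934 for Aldh1a1, whose longest GENCODE transcripts have 3077 and 2358 bases. For Crabp1 both are 802 bases. The order below, with the places of Stra6 and Aldh1a1, therefore depends on the length used, and no other length was tried. Rxrg had the highest mean over the 8 mice, 10.6 CPM per kilobase, with single mice from 5.11 to 18.7. Rbp4, at 9.70, and Aldh1a1, at 9.48 CPM per kilobase, could not be placed apart from it, since each gene exceeded the next in 4 of 8 mice. Aldh1a2 followed at 4.70 CPM per kilobase and was below Aldh1a1 in 8 of 8 mice. Cyp26b1 had 2.54 CPM per kilobase, below Aldh1a2 in 7 of 8 mice. Rarb at 2.21, Rara at 2.04 and Crabp1 at 1.91 CPM per kilobase lay close below, each exceeded by the gene before it in only 5, 6 and 4 of 8 mice, and Stra6 was the lowest at 1.001, below Crabp1 in 7 of 8 mice. Among the enzymes, Aldh1a1 thus stood above the meningeal Aldh1a2 in every mouse. Of receptor genes outside the 9, Rxrb had 18.1, Rxra 6.97 and Rarg 2.89 CPM per kilobase, and the third synthesis enzyme, Aldh1a3, had 0.33.

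**Figure D2:**
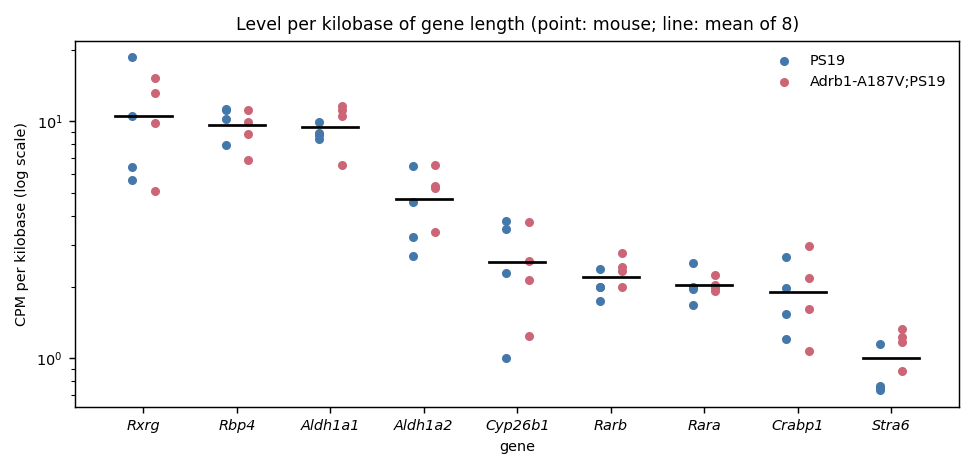
CPM per kilobase of gene length, on a log axis, for the 9 genes in falling order of the mean; points are mice coloured by genotype and lines the mean of 8 mice. The order runs from Rxrg at 10.6 to Stra6 at 1.001, with Rxrg, Rbp4 and Aldh1a1 overlapping at the top and Cyp26b1, Rarb, Rara and Crabp1 overlapping lower down.

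The rest of the pathway was taken from a list of 72 further retinoid genes, of which 49 passed the filter. Of these 49, 27 had a log2 fold change above 0 and 22 below, with a median of 0.02. After Benjamini-Hochberg adjustment over all genes in edgeR, 0 of the 49 passed (adjusted p = 0.9996 at the lowest), and so did 0% of all genes tested. At an unadjusted p under 0.05 in edgeR, 1 gene was higher and 1 lower in Adrb1-A187V;PS19 mice, which is 2 of 49 against 2.8% of all genes, 1.42% higher and 1.37% lower.

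By role, 4 of the 7 other carriers had a log2 fold change above 0, as had 8 of 16 enzymes, 6 of 15 receptors and coregulators and 9 of 11 target genes, where 50.2% of all genes tested were above 0. The medians were 0.02, 0.02, -0.02 and 0.11. The part of tissue differences between the mice in these counts was not tested. None of the 11 targets and none of the 16 enzymes had an edgeR unadjusted p under 0.05. Aldh1a3 was measured at 0.50 to 1.98 CPM and Cyp1b1, an enzyme that can also oxidize retinol, at 2.90 to 6.13 CPM. Drd2, the dopamine receptor gene and a known target of retinoid receptors, was measured at 24.0, 55.2, 33.0 and 24.0 CPM in PS19 and at 59.2, 20.5, 41.5 and 51.0 CPM in Adrb1-A187V;PS19 mice, with a log2 fold change of 0.34. With all 8 mice its SE was 0.29 and its edgeR unadjusted p 0.266. Without PS19 mouse 2, the highest of its group, the log2 fold change was 0.66 (edgeR unadjusted p = 0.0253). It was 0.58 without Adrb1-A187V;PS19 mouse 2, the lowest of its group (edgeR unadjusted p = 0.0267). None of the other fits without a single mouse had an unadjusted p under 0.05 for Drd2. Leaving out the highest PS19 mouse or the lowest Adrb1-A187V;PS19 mouse widens the difference by construction, so nothing is read from those 2 p-values. In each genotype the mice with high Drd2 were those with high Rxrg, and also those with high summed striatal markers, given below. The part of striatal tissue in the level of Drd2 was not tested. Ttr, which carries RBP4 in blood and cerebrospinal fluid and is made in the choroid plexus, ranged from 11.5 to 526.5 CPM, a 45.7-fold span. Cyp26a1, Cyp26c1 and Lrat were among the 23 genes that did not pass the filter.

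**Figure D3:**
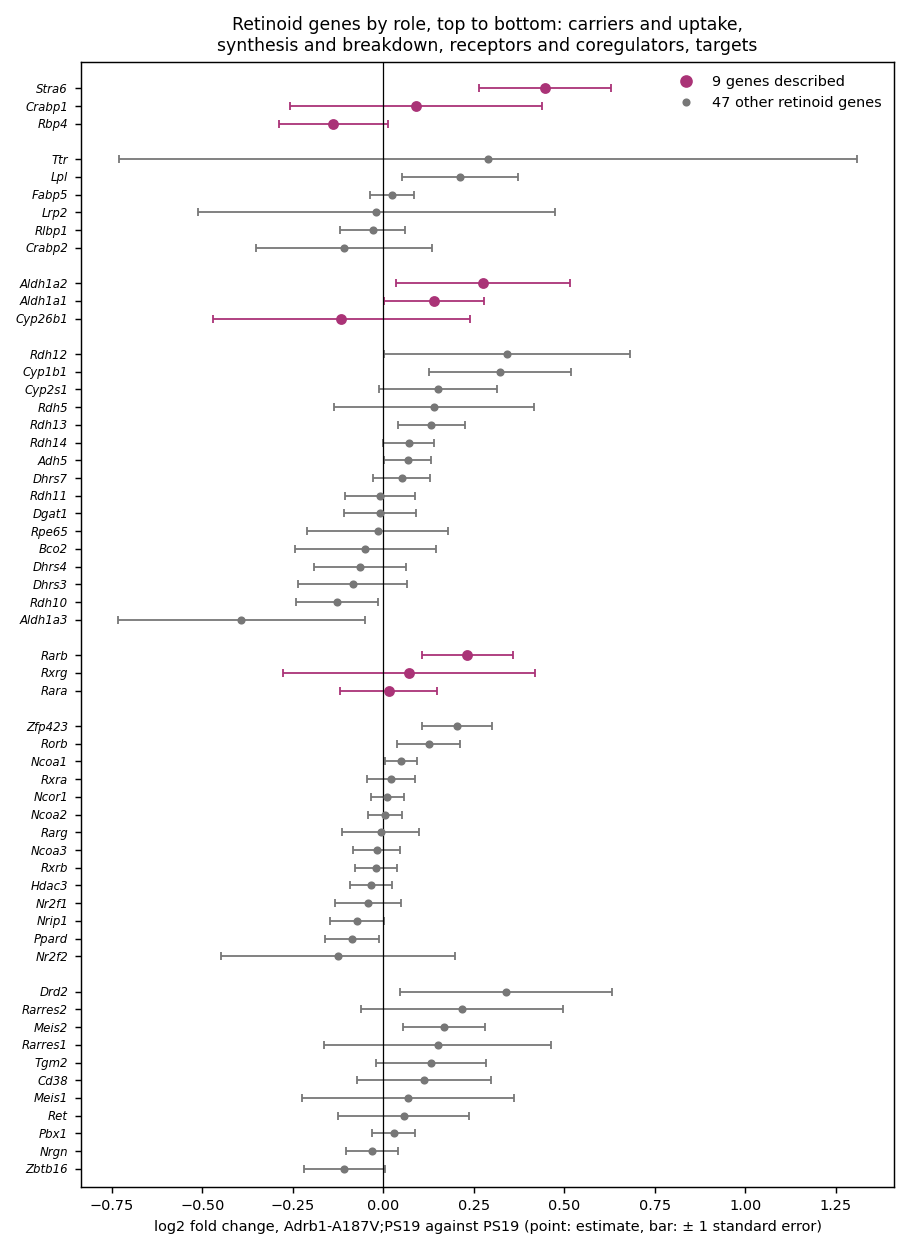
Log2 fold change of Adrb1-A187V;PS19 against PS19 mice for the 9 genes (large points) and 47 of the 49 other retinoid genes, those with an edgeR unadjusted p of at least 0.05 (small points), grouped by role; bars are ± 1 standard error. Stra6 at 0.45 lies furthest to the right of the 9 genes, and Ttr has the widest bar.

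The variation among mice of 1 genotype was examined on its own, with each mouse's log2 CPM taken as its deviation from the genotype mean. This removes the difference of means in which Stra6 was seen higher, though the spread within genotypes does enter a test of that difference. Among the 36 pairs of the 9 genes, 2 had a p under 0.05 for Pearson's r and 0 after adjustment over the 36 (exact permutation of mice within genotypes, 2-sided). Stra6 and Aldh1a2 had r = 0.85 (p = 0.0295) and rho = 0.74 (p = 0.0556), with an adjusted p of 0.43 by exact permutation. They deviated to the same side in 7 of 8 mice, PS19 mouse 1 was the highest of its group in both, and without the 2 mice farthest from the median of Stra6 the r was 0.62. Leaving out single mice moved it between 0.71 and 0.94, and p was 0.118 without PS19 mouse 1 and also 0.118 without Adrb1-A187V;PS19 mouse 1. It stayed under 0.05 in 5 of 10 alternatives. Crabp1 and Rxrg had r = 0.80 (p = 0.033) and rho = 0.81 (p = 0.0347) by exact permutation, an adjusted p of 0.43, and r = 0.65 without the 2 farthest mice. The smallest p for rho was that of Rbp4 with Aldh1a1, which deviated to opposite sides in 7 of 8 mice (rho = -0.90, p = 0.00694, adjusted p = 0.25; r = -0.69, p = 0.135; exact permutation), with r = -0.87 without the 2 farthest mice. With single mice left out the r of Crabp1 and Rxrg lay between 0.67 and 0.97, and p stayed under 0.05 in 2 of 8 such runs, without PS19 mouse 1 and without PS19 mouse 4.

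The same deviations were set against the mean of 11 lists of cell type markers, 99 relations in all. Of these, 10 had a p under 0.05 for r and 0 after adjustment, where the smallest p the 576 orders of mice allow is 0.00174. The 2 farthest mice are always those farthest from the median of the member, or of the gene named first in a pair. A mouse far out only in the list or in the other gene was kept. Rxrg followed the 12 striatal markers with r = 0.99 (p = 0.00347, adjusted p = 0.172) and rho = 0.98 (p = 0.00521), by exact permutation. It lay on the same side as the markers in 8 of 8 mice, and r was 0.98 without the 2 farthest mice and 0.98 to 0.99 with single mice left out. In the order of the mice given above, the striatal markers summed to 1096, 2172, 1559 and 1171 CPM in PS19 and to 2438, 1134, 1652 and 2028 CPM in Adrb1-A187V;PS19 mice, so the low and the high mice were those of Rxrg. All 12 had a log2 fold change above 0 with a median of 0.30, and 1 of 12 had an edgeR unadjusted p under 0.05. Crabp1 had r = 0.86 with the same list (p = 0.0191, adjusted p = 0.315; rho = 0.88, p = 0.0139; exact permutation), and 0.73 without the 2 farthest mice. How much of the cortex samples was striatal tissue was not measured, and its part in these levels was not tested.

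Aldh1a2 followed the 15 markers of leptomeninges and fibroblasts with r = 0.93 (p = 0.0122, adjusted p = 0.241) and rho = 0.90 (p = 0.0139), by exact permutation. The r was 0.84 without the 2 farthest mice and 0.89 to 0.97 over the 10 alternatives, with p under 0.05 in each. Stra6 had r = 0.66 with this list (p = 0.135, exact permutation), which moved between 0.47 and 0.87 as single mice were left out, with p = 0.0417 without PS19 mouse 4, and 0.79 with the endothelial list (p = 0.0556; rho = 0.81, p = 0.0451; adjusted p = 0.423 for r and 0.406 for rho; exact permutation), where r was 0.53 without the 2 farthest mice. The leptomeningeal markers summed to 173.5 to 247 CPM in PS19 and 168.9 to 267 CPM in Adrb1-A187V;PS19 mice, and 11 of 15 had a log2 fold change above 0, with a median of 0.06 and 0 with an edgeR unadjusted p under 0.05. The part of meningeal tissue in the levels of Stra6 and Aldh1a2 was not tested.

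Cyp26b1 had r = 0.80 with the choroid plexus list (p = 0.0278, adjusted p = 0.344; rho = 0.93, p = 0.0104; exact permutation), and 0.88 without the 2 farthest mice. The 15 choroid plexus markers, of which 13 passed the filter and entered the correlations, summed to 253.8 to 406.1 CPM in PS19 and 253.5 to 567.2 CPM in Adrb1-A187V;PS19 mice. Such a sum is weighted to the most abundant markers. The mean log2 deviation of the 13 ran from -0.74 in PS19 mouse 3 to 1.58 in Adrb1-A187V;PS19 mouse 4, a mouse kept in the r of 0.88. With the choroid plexus list Stra6 had r = -0.16 (p = 0.651, exact permutation). Aldh1a1 had r = 0.78 with microglial and 0.69 with astrocyte markers (p = 0.00868 and 0.00174, adjusted p = 0.215 and 0.172; rho = 0.88 and 0.83, p = 0.00521 and 0.00347; exact permutation). Without the 2 farthest mice these were 0.68 and 0.59. The other 4 relations with p under 0.05 were negative: Rbp4 with microglial and astrocyte markers, Cyp26b1 with oligodendrocyte markers, and Rarb with leptomeningeal markers (r = -0.81, -0.76, -0.78 and -0.87, with p = 0.026, 0.0399, 0.0434 and 0.00868 by exact permutation). Their adjusted p ran from 0.215 to 0.423, their rho was -0.90, -0.86, -0.76 and -0.81 (p = 0.00868, 0.0226, 0.0451 and 0.0451, exact permutation), and without the 2 farthest mice r was -0.92, -0.91, -0.97 and -0.71.

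**Figure D4:**
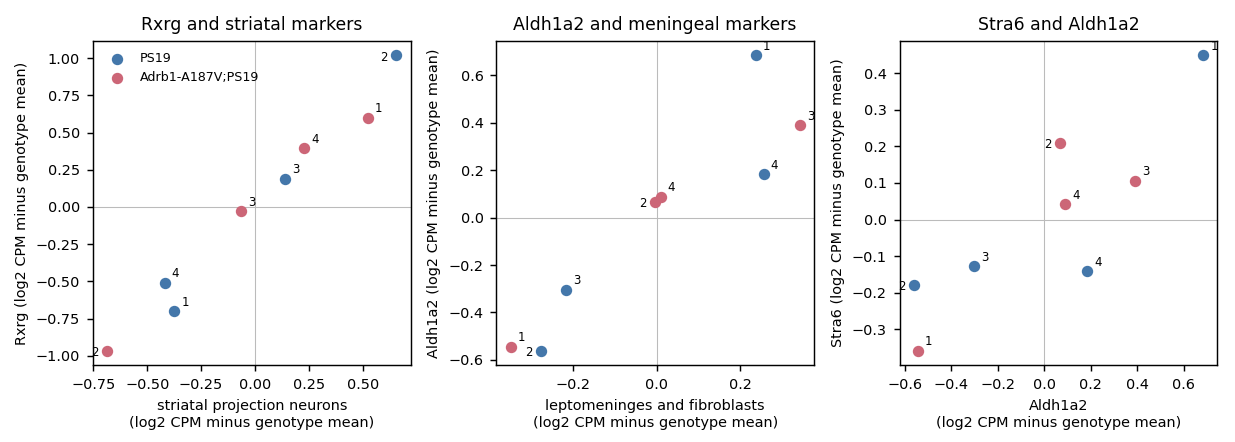
Deviations of log2 CPM from the genotype mean in 8 mice, numbered within genotype, for Rxrg against striatal markers, Aldh1a2 against leptomeningeal markers and Stra6 against Aldh1a2. The points of Rxrg lie close to a line (r = 0.99), those of Aldh1a2 more loosely (r = 0.93), and in the last panel PS19 mouse 1 lies far out at the upper right (r = 0.85).

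**Figure D5:**
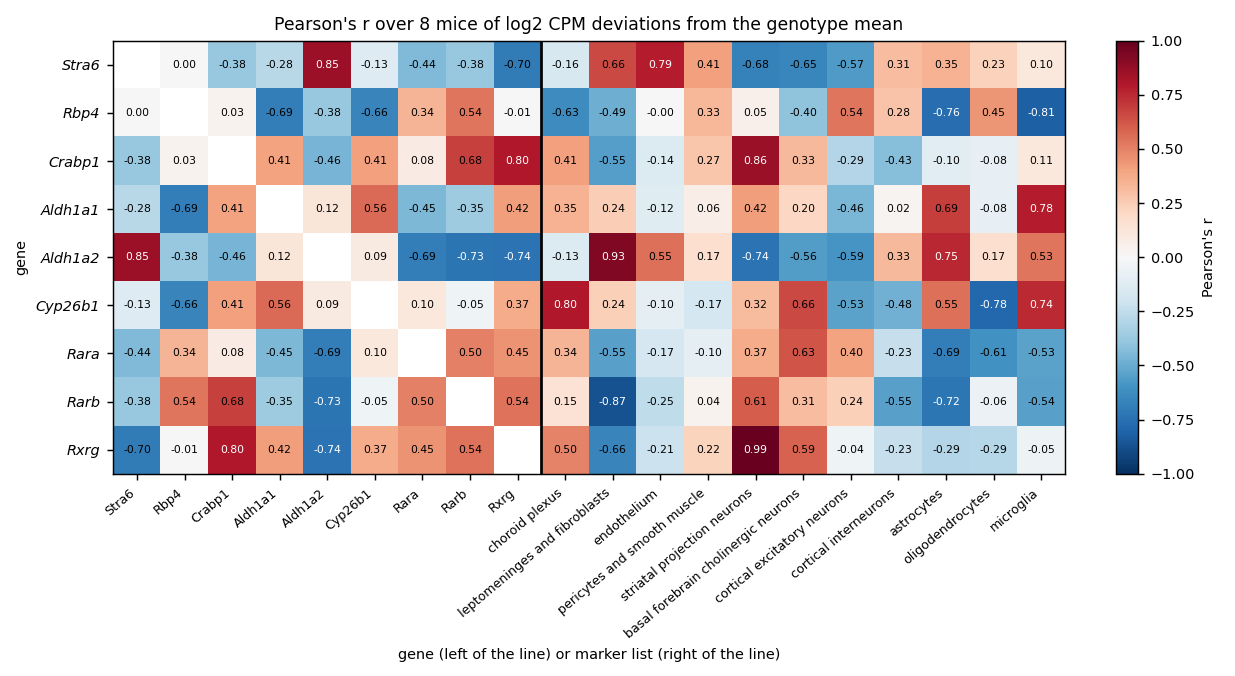
Pearson's r over 8 mice between the 9 genes (left of the line) and between each gene and 11 marker lists (right of the line), from blue at -1 to red at 1. Rxrg with striatal markers (0.99) and Aldh1a2 with leptomeningeal markers (0.93) are the deepest red cells.

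Ranked against 15773 genes with a mean of at least 1 CPM, the 5 genes most like each member over the 8 mice were taken by Pearson's r of the same deviations, as a description. For Rxrg they included Pde10a (r = 0.994), Adcy5 (0.992), Adora2a (0.991) and Rgs9 (0.988), of which all but Adcy5 are in the striatal list. For Aldh1a2 they were Nradd (0.989), Iigp1, Rspo3, Tbc1d17 and Gmfg (0.981). For Stra6 they were Clec3b (0.994), Rtbdn (0.982), Amy1 (0.978), Slc6a12 (0.978) and Apeh (0.974). None of the 5 for Aldh1a2 or Stra6 is in a marker list. The most like gene was Casc1 for Rbp4 (0.997), Kcnk1 for Crabp1 (0.997), Taok3 for Aldh1a1 (0.984), Farsb for Cyp26b1 (0.982), Wdr55 for Rara (0.986) and 2500004C02Rik for Rarb (0.975). All of these values are the top of a long ranking over few mice.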

How the data were processed

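Bulk RNA sequencing of the cortex of 8 mice was analysed, 4 per genotype, grouped by the genotype in the labels. The authors aligned reads to GRCm38 and deposited counts per Ensembl gene, not normalized; their processing notes name HISAT2 2.0.5 and featureCounts 1.5.0-p3. Whether counting used strand, read pairs or reads with several matches is not given in the sources used here. The deposited table also gives each gene's length, another number that is no measurement, used for CPM per kilobase.

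The members and all gene lists were chosen with earlier results of these data known. Genes were kept by edgeR's filterByExpr, scaled by TMM and compared with edgeR 4.0.16 (quasi-likelihood F test, 2-sided, no covariates, R 4.3.3), with Benjamini-Hochberg adjustment over 17195 genes. The study selected genes at an unadjusted p under 0.05, and that threshold was used for counts of genes. A standard error is the size of the log2 fold change divided by the square root of F. Deviations used log2 CPM with a prior count of 2, and a list's value is the mean of its genes. Their correlations were tested by all 576 orders of mice within genotypes, with adjustment within each family. The rule named the members, the other retinoid genes that passed the threshold and the 5 genes most like each member, some of which are not reported here; Drd2, Ttr, Aldh1a3, Cyp1b1, Top2b and further genes were named after their values were seen. Shared stretches were counted against GENCODE M21 transcripts. The alternatives were DESeq2 1.42.0, limma-voom (limma 3.58.1), DESeq2's size factors, 2 other filters, a prior count of 0.5 for the correlations, and fits without single mice. The tests were checked on simulated data. With 1 library per mouse, p-values measure the spread between these mice.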

Additional observations from a re-analysis of the deposited data

Results flagged for a closer look

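Each of the 9 genes was searched in each genotype, 18 groups of 4 mice, on the log2 CPM scale for a mouse far from the other 3, and chance picks out about 1 in 20 such groups. In Stra6, PS19 mouse 1, the highest of the PS19 mice at 6.68 CPM against 4.28 to 4.44 CPM, took 0.919 of the log2 range of its group as its gap to the next mouse. The log2 fold change of Stra6 is 0.62 without it. In Aldh1a1, Adrb1-A187V;PS19 mouse 2, the lowest of its group at 32.3 CPM, took 0.834 of the log2 range. On the CPM scale, tried after seeing the data, the gaps were 0.934 for Stra6 and 0.793 for Aldh1a1, and the gap of Aldh1a1 no longer passed the critical value. The log2 fold change of Aldh1a1 ranged from 0.06 to 0.30 over the alternatives.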

How the results depend on the processing

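The 13 alternatives gave 117 values for the log2 fold changes of the 9 genes, and 12 of them changed sign. All 117 were within 1 SD of the reported ones, taking the SD of single mice within genotypes. Leaving out 1 of 4 mice can hardly move a group mean by that much, so this is no sign of stability. For Rxrg the value went from 0.07 to 0.50 without PS19 mouse 2. With no filter beyond 1 count, 1366 genes had an unadjusted p under 0.05 instead of 481, and 7 of the other retinoid genes instead of 2 (Ttr, Lpl, Meis2, Drd2 and Oxt were added); the cause was not tested. Leaving out single mice gave 431 to 674 genes, and 1 to 4 of the other retinoid genes: 1 without PS19 mouse 1, PS19 mouse 4 or Adrb1-A187V;PS19 mouse 3, and 4 without PS19 mouse 2 or Adrb1-A187V;PS19 mouse 2. DESeq2 gave 555 genes and limma-voom 492. The number of correlations past the adjusted threshold was 0 in all 10 alternatives run, for member pairs and for marker lists. With all 8 mice, a marker list relation at the smallest possible p of 0.00174 (exact permutation) had an adjusted p of 0.172. Fewer orders remain without a mouse, so the count could hardly differ from 0 and is no sign of stability. No paired analysis was possible because nothing in the labels ties a mouse of a genotype to a mouse of the other: the numbers 1 to 4 follow the order of the samples, and no litter is named. Of the 9 genes, counting error is largest for Crabp1, with 16 to 40 counts, where it gives an SD of 0.28 of the 0.52 seen within genotypes on the log2 scale, and 0.14 of 0.28 in Stra6. Only 4 mice per genotype were measured.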
